A study of Drosophila melanogaster with 2 samples.

Results

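The odorant binding protein family comprised every gene on the Affymetrix Drosophila 2 GeneChip whose symbol begins with Obp and a number. This rule found 51 of the 12767 genes that could be named on the array, all 51 genes of that name in RefSeq, covered by 54 of 18952 probe sets. The rule uses the gene names and no signal, but it was set with earlier results of these arrays known. Expression was measured in 1 array of Ck1alphaRNAi larvae, the offspring of the fat body driver Dcg-Gal4 and UAS-Ck1alphaRNAi, and 1 array of control larvae, the offspring of Dcg-Gal4 and w1118. Both groups therefore carried the driver. Each array was made from a pool of 20 whole larvae in the middle of the third instar, at the feeding stage. The labels give 6 days of culture. The term feeding names the stage before wandering, since the paper describes the Ck1alphaRNAi larvae as diabetic and not feeding. The driver is active in fat body and blood cells, whereas the RNA came from the whole animal, so that fewer cells of a type and less RNA per cell cannot be told apart. According to the methods, cultures of Ck1alphaRNAi larvae were started a day before those of controls to allow for their slower development. The labels give the same 6 days for both groups, so whether the pools differed in age is not known.

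Odorant binding proteins are small secreted proteins that hold hydrophobic molecules in a pocket. In the antenna and in the larval nose and taste organs they are shed into the fluid around sensory neurons, where they are thought to carry odorants and pheromones to the receptors. Many members are also made outside sense organs, among them in fat body, gut, glia and the reproductive tract, where their ligands are mostly unknown. Many genes of the family lie in clusters, and the number in each name gives the map position. Members are grouped here by that number, which does not mean that they are adjacent. No protein or nucleotide sequences were used here.

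Each group had 1 array, so differences have no replicate check and are given without p-values. Detection here means that either array gave a signal of 100 or more, a level that 9163 of the named genes (71.8%) reached. Where a gene had several probe sets, the one with the highest mean signal was used. Between probe sets for the same gene, log2 ratios varied with a pooled SD of 0.41 (1.33-fold, 413 genes), which leaves out the spread between pools of larvae. As a background level, the highest signal of 17 tag control probe sets, which match no fly sequence, was 53.3 for Ck1alphaRNAi larvae and 33.1 for controls. No fold is given where both signals of a gene lay below these levels.

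The silenced gene, annotated CkIalpha, had a ratio of 0.771 (signals of 2055 in Ck1alphaRNAi larvae and 2665 in controls). Its log2 ratio of -0.37 lay within 1 SD of the spread between probe sets. Of 9 markers of the fat body and of its stage, all detected, 7 were at least 2-fold lower in Ck1alphaRNAi larvae, with a summed signal of 35933 against 153834, and all 6 salivary glue genes were at least 2-fold lower as well (23221 against 108793). Muscle markers (8 of 8 within 2-fold) and gut markers (6 of 6 within 2-fold) differed little. Of 4 detected blood cell markers, He was 5.35-fold higher in Ck1alphaRNAi larvae, at 2988 against 558. The others, among them Pxn at 609 against 1001, lay within 2-fold. The larvae are labelled female. Nevertheless, 6 of 8 measured testis markers were detected, and the spermatogenesis genes Mst84Dc (744 in Ck1alphaRNAi larvae, 1320 in controls) and betaTub85D (612 and 987) were above 100 on both arrays, which goes against that label. Of the 6 detected testis markers, 2 were at least 2-fold lower in Ck1alphaRNAi larvae, Mst87F (271 against 682) and sa (39.2 against 141). The summed signal of the testis list was 7554 against 4017. Of this, alphaTub85E, the only detected gene of the list at least 2-fold higher, gave 5724 and 674. Every other detected gene of the list had the lower signal in Ck1alphaRNAi larvae, so that the sum follows alphaTub85E alone.

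Of the 51 odorant binding protein genes, 18 (35.3%) were detected and 33 lay below 100 on both arrays. A further probe set, at 2161 in Ck1alphaRNAi larvae against 2127 in controls, carries the symbols of both Cpr57A, a cuticle protein gene, and Obp57d, but its transcript identifier is that of Cpr57A, and it was not counted. The probe set designed on the transcript of Obp57d gave 84.8 and 41.9. Among the detected genes, 17 passed on both arrays, and Obp56c passed through the Ck1alphaRNAi array alone, at 132 against 87.6. Just inside the threshold lay Obp99d, with 119.8 and 101, and just outside it Obp57d and Obp50c (77.5 in Ck1alphaRNAi larvae and 67.1 in controls).

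Obp99b, Obp99c and Obp99a, 3 genes with the same number in their name, were lower in Ck1alphaRNAi larvae and 1 gene, Obp18a, was higher, each by at least 2-fold. The remaining 14 detected genes (77.8%) lay within 2-fold, against 90.2% of all detected genes. Of all detected genes, 7.01% were at least 2-fold lower and 2.82% at least 2-fold higher, against 3 of 18 (16.7%) and 1 of 18 (5.56%) in the family. These shares describe small counts on a single pair of arrays. The median log2 ratio of the detected family members was 0.13, and that of all detected genes -0.02. With a signal of 100 required on both arrays, these medians were 0.08 and 0.0003.

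**Figure D1:**
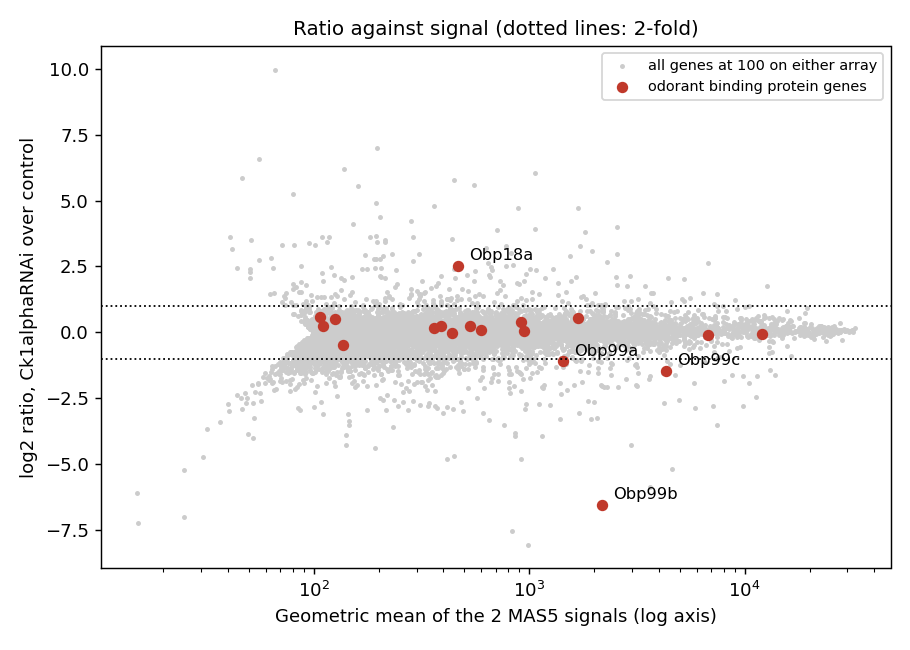
Log2 ratio of Ck1alphaRNAi over control larvae (1 array each) against the geometric mean of both MAS5 signals on a log axis, for 9163 detected genes (grey) and 18 detected odorant binding protein genes (red). Obp99b lies far below the other members at a log2 ratio of -6.55, Obp99c and Obp99a lie below the dotted 2-fold line, and Obp18a lies above it at 2.52.

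The Obp99 group, 4 genes that share a map position in their names, was the only such group in which every member was detected and more than 1 member was 2-fold changed. In RefSeq order Obp99c, Obp99d and Obp99b lie close together, whereas Obp99a has no other odorant binding protein gene within 2 places. Signals of Obp99b were 225 in Ck1alphaRNAi larvae against 21012 in controls, 93.5-fold lower (log2 ratio -6.55). It ranked 5 from the lowest when the 9163 detected genes were ordered by ratio. Of these genes, 1.33% were at least 4-fold lower, and Obp99b was the sole odorant binding protein gene among them. Its signal in Ck1alphaRNAi larvae still lay above the highest tag control and above 100.

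Obp99c gave 2604 in Ck1alphaRNAi larvae against 7176 in controls (2.76-fold lower, log2 ratio -1.46). Obp99a gave 983 against 2115 (2.15-fold lower, log2 ratio -1.10). Both decreases were well short of that of Obp99b, and both exceeded 2 SDs of the spread between probe sets. The fourth member, Obp99d, went the other way by a small amount, at 119.8 in Ck1alphaRNAi larvae against 101 in controls (log2 ratio 0.24), which is within 1 SD. Obp99a is expressed in the adult antenna, and the annotation in the deposited table lists Obp99a and Obp99b under response to pheromone and olfactory behavior. The same annotation lists Obp99b and Obp99d under autophagic cell death of the salivary gland.

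Of the genes measured within 2 places of Obp99a, Obp99b or Obp99c in RefSeq order, other than these members, none was 2-fold lower. CG15506, the next gene after Obp99b, gave 36.1 in Ck1alphaRNAi larvae and 49.8 in controls, and Dup99B, on its other side, had no probe set under that name. The genes on either side of Obp99c, Gycalpha99B and dmrt99B, gave 94.2 against 68.2 and 17.5 against 16.1, and CG7582, 2 places from Obp99c, gave 148 against 137. Bub3, 2 places from Obp99a, gave 1109 against 1160. Apart from CG7582 and Bub3 these named genes were below 100 on both arrays, so that their ratios carry little weight.

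The storage proteins of the fat body moved in the same direction as Obp99b on these arrays. Lsp2, a larval serum protein, gave 475 in Ck1alphaRNAi larvae and 27757 in controls (58.4-fold lower), and Fbp2 gave 60.8 and 16099. Of the 9 fat body and stage markers, 7 were at least 2-fold lower, among them Rfabg by 2.69-fold. The others were the desaturase gene desat1 (18212 and 17518) and the collagen gene Cg25C (6061 and 4408). In RNA of whole larvae, the tissue that gave their signals was not measured. Each genotype had a single pool of larvae. Larval stage, the share of males and knockdown therefore cannot be told apart as sources of the values of Obp99b, Obp99c, Obp99a or Obp18a. The part of the fat body and salivary gland markers in the values of these 4 genes was not tested.

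Obp18a, the sole member with its number, was the detected gene of the family with the highest ratio. The Ck1alphaRNAi array gave 1117 and the control array 195, so that Obp18a was 5.74-fold higher (log2 ratio 2.52). Both values were above 100 and above the highest tag controls, and it ranked 62 from the highest by ratio among the 9163 detected genes. Of all detected genes, 1.08% were at least 4-fold higher, with Obp18a as the only odorant binding protein gene among them. Of the genes measured within 2 places, tgy gave 458 in Ck1alphaRNAi larvae against 376 in controls, and CG15882 gave 46.3 against 37.0. Inx5, on the other side, went the other way, at 93.1 against 144. All lay within 2-fold, and CG15882 was below 100 on both arrays.

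**Figure D2:**
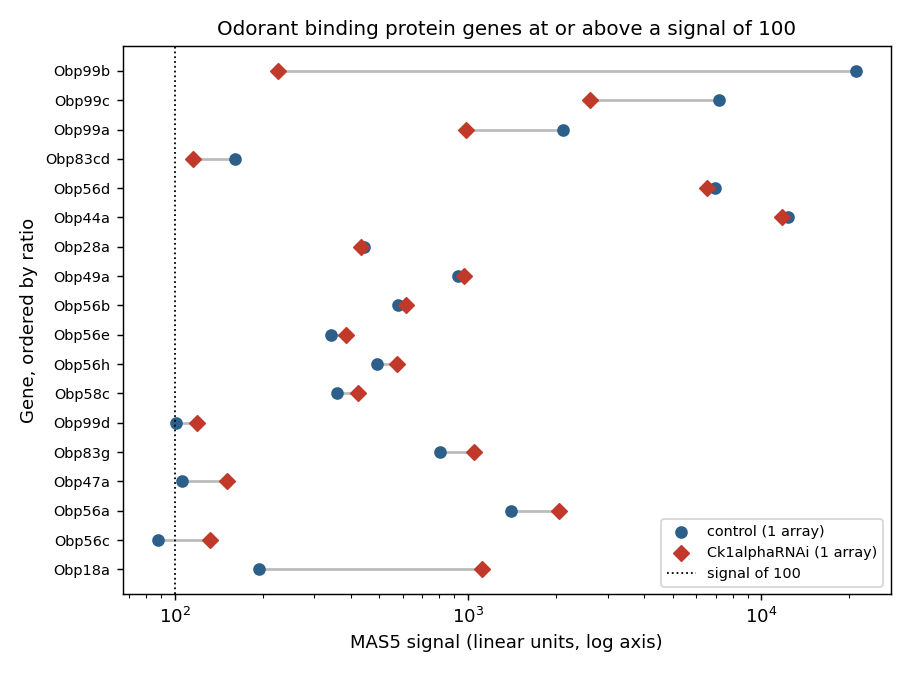
MAS5 signals (log axis) of the 18 detected odorant binding protein genes in control larvae (blue circles) and Ck1alphaRNAi larvae (red diamonds), 1 array each, ordered by ratio. The line between the points spans the difference, which is widest for Obp99b (225 against 21012), and the dotted line marks a signal of 100.

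The Obp56 group held the most detected genes, 6 of 9, and all 6 lay within 2-fold, as did 90.2% of all detected genes. Obp56a gave 2044 in Ck1alphaRNAi larvae and 1403 in controls (ratio 1.46). Obp56c, with 132 against 87.6, had the highest ratio within 2-fold (1.505). These values differed by more than 1 SD between probe sets, and those of the other 4 did not. Obp56d gave 6558 against 6952, Obp56b 615 against 580.1, and Obp56h, which has been linked to mating behavior in adult males, 574 against 489. Obp56e gave 385 against 343. It was the only detected gene among 6 members listed under reproduction in the annotation. The others of that list, Obp22a, Obp51a, Obp56f, Obp56g and Obp56i, are among those below 100, with 11.2, for Obp56i in controls, as their highest signal.

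Obp44a, which has been described as a carrier of fatty acids in glia of the nervous system, gave 11829 in Ck1alphaRNAi larvae and 12376 in controls (ratio 0.956). This difference was far within 1 SD. Of 7 glial markers, all detected, 6 lay within 2-fold, with repo, the transcription factor that defines glia, at 196 against 211, and the glutamate transporter gene Eaat1 was 2.80-fold lower. The summed signal of the 7 markers was 14652 against 16886. Obp28a, an abundant member of the adult antenna, gave 432 against 444. Obp49a, which in adult flies acts in taste bristles where bitter compounds suppress the response to sugar, gave 972 against 929. The ratios of Obp44a, Obp28a and Obp49a thus lay between 0.956 and 1.05.

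Obp83g gave 1048 in Ck1alphaRNAi larvae and 805 in controls (ratio 1.30). Obp83cd, of the same map position, went the other way, at 116 against 161 (ratio 0.720), and Obp83ef of the same group gave 41.7 against 68.8, at least 1.29-fold lower when the Ck1alphaRNAi signal is taken at the highest tag control. The log2 ratio of Obp83cd (-0.47) was beyond 1 SD between probe sets, and that of Obp83g (0.38) was within it. Among other detected genes, Obp47a gave 150.4 against 106 (ratio 1.42) and Obp58c 422 against 357 (ratio 1.18). In all, 10 of the 14 genes within 2-fold were higher in the Ck1alphaRNAi pool and 4 were lower. Obp56c, which passed the filter through the Ck1alphaRNAi array alone, is counted among the 10 and in the shares that follow. Over all 18 detected members the share that was higher was 61.1%, against 47.7% of all detected genes. Of the 18 detected genes, 55.6% lay within 1 SD between probe sets, against 67.5% of all detected genes.

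**Figure D3:**
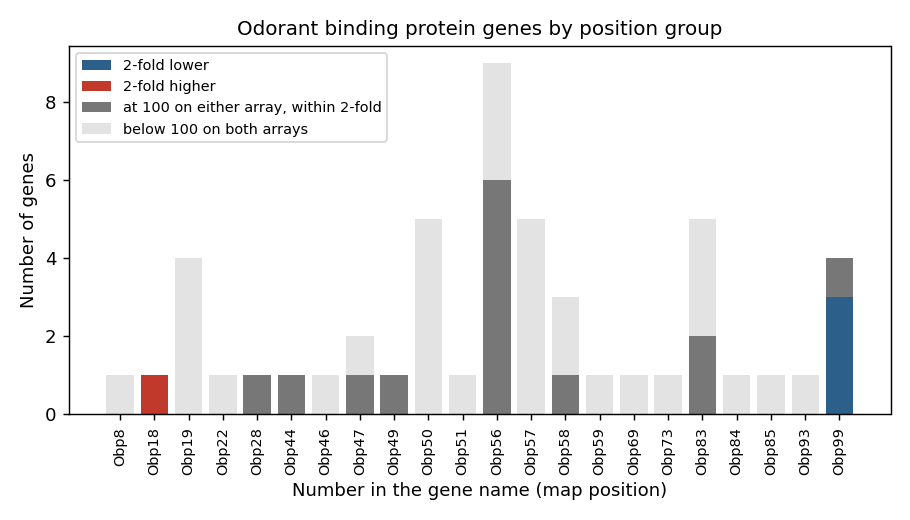
Number of odorant binding protein genes by the number in the gene name, which gives the map position, split into genes at least 2-fold lower (blue) or higher (red) in Ck1alphaRNAi larvae, genes within 2-fold (dark grey) and genes below a signal of 100 on both arrays (light grey). All 4 genes of the Obp99 group were detected and 3 were lower, 6 of 9 genes of the Obp56 group were detected within 2-fold, and none of the 5 genes each of the Obp50 and Obp57 groups was detected.

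The 33 genes below 100 had signals of 1.03 to 84.8 in Ck1alphaRNAi larvae and 0.871 to 75.3 in controls, with medians of 12.2 and 11.4. Of these, 23 lay below the highest tag control of each array, and 17 had the higher and 16 the lower signal in Ck1alphaRNAi larvae. Such signals do not show that a transcript is absent. The Obp50 group (5 genes), the Obp57 group (5 genes) and the Obp19 group (4 genes) were below 100 throughout. So were 11 of the 13 Plus-C members, a subgroup with additional cysteines, of which Obp49a and Obp58c were detected, whereas 16 of the other 38 genes were detected.

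Several genes known from the sense organs of the adult were in this group. Obp83a and Obp83b, which are secreted around olfactory neurons of the antenna, gave 58.3 and 10.03 in Ck1alphaRNAi larvae against 67.6 and 7.76 in controls. Obp59a, which is required for humidity sensing, gave 26.7 against 15.5. Obp57e, which together with Obp57d has been linked to host plant choice in Drosophila species, gave 21.8 against 4.91. In the Obp57 group all 5 genes were higher on the Ck1alphaRNAi array, but 4 of them lay under the highest tag control on both arrays, and no fold is given for these. Obp57d, at 84.8 against 41.9, was above the tag controls on both arrays, with a quotient of 2.02.

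The widest quotients below 100 belonged to signals near background. Obp50b gave 2.07 in Ck1alphaRNAi larvae and 36.0 in controls, and Obp50c, whose gene overlaps it in RefSeq and with which it shares its symbols in the table, gave 77.5 and 67.1. Obp46a gave 49.8 against 6.20, Obp8a 10.6 against 1.44 and Obp85a 11.6 against 3.02. On neither array did these 3 genes exceed the tag controls. A second probe set was present for Obp19a, Obp19c and Obp59a, and none of the 6 probe sets of these genes reached 100. For Obp59a the sets pointed in opposite directions, at 26.7 against 15.5 and 2.21 against 3.75.

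**Figure D4:**
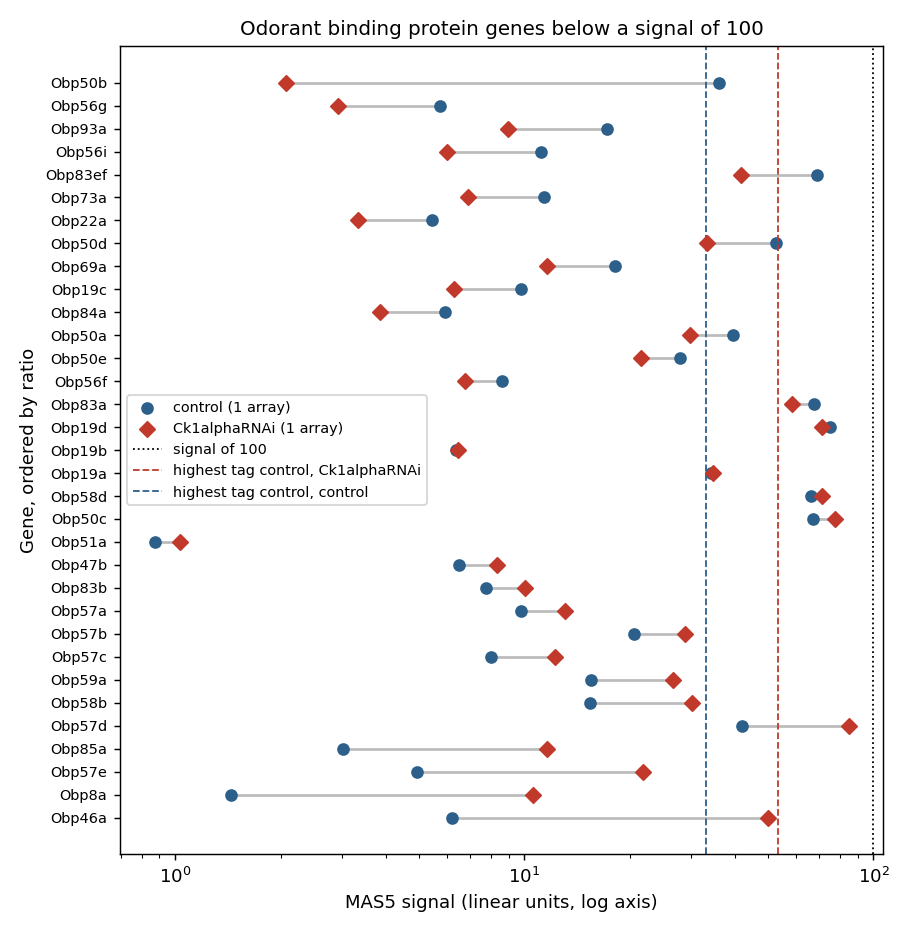
MAS5 signals (log axis) of the 33 odorant binding protein genes below 100, in control larvae (blue circles) and Ck1alphaRNAi larvae (red diamonds), 1 array each, ordered by ratio. Dashed lines mark the highest tag control of each array (53.3 for Ck1alphaRNAi, 33.1 for control), and 23 genes lie to the left of the line of their array on both arrays.

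Other chemosensory genes were near background in whole larvae. None of 59 odorant receptor genes, including the co-receptor gene Orco (34.5 in Ck1alphaRNAi larvae, 26.0 in controls), and none of 58 gustatory receptor genes reached 100. The ionotropic receptors had 1 detected gene of 54, Ir76a, at 158 against 125. Larval chemosensory organ markers were all below 100, 6 of 6 measured, with a summed signal of 242 against 210. The tissue in which the 18 detected odorant binding protein transcripts arose was not measured. Lush, an odorant binding protein for a male pheromone that the name rule does not catch, gave 4.71 against 1.35.

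In other families, 3 of 4 measured chemosensory protein genes and all 4 takeout and lipocalin genes were detected. None of 12 CheA and CheB genes reached 100. Of the detected ones, 1 chemosensory protein gene was at least 2-fold lower and 1 lipocalin gene at least 2-fold higher. Phk-3 gave 2243 in Ck1alphaRNAi larvae against 3028 in controls, and PebIII 3111 against 2343. CG30172 was 2.02-fold lower, at 164 against 331, and a10 lay below 100, at 83.1 against 71.8. Among the lipocalin genes, which also encode carriers of hydrophobic molecules, Karl was 3.10-fold higher (746 against 241), while NLaz gave 173 against 275 and GLaz 216 against 159. The gene takeout gave 210 against 249. No control signal in these lists exceeded 3028, so a decrease as wide as that of Obp99b would have ended below the highest tag control. Such a decrease could therefore not be measured here.

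**Figure D5:**
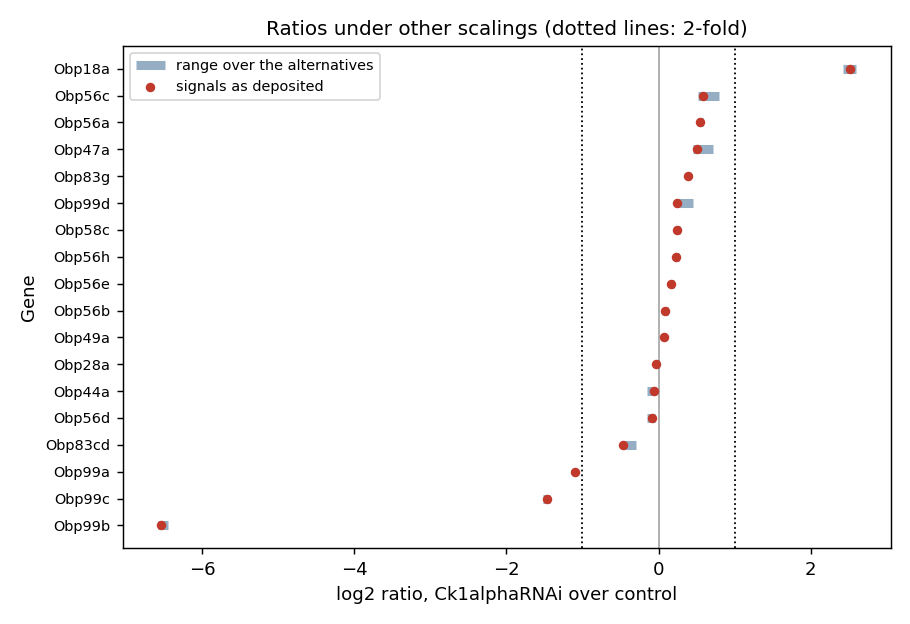
Log2 ratio of Ck1alphaRNAi over control for the 18 detected odorant binding protein genes with the signals as deposited (red points), and the range over these, the other scalings and the pseudocount (blue bars). Obp99b, Obp99c, Obp99a and Obp18a stay beyond the dotted 2-fold lines. No bar of the 18 genes crosses 0, though that of Obp28a ends at -0.0001.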

How the data were processed

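Gene expression was measured in whole larvae with 1 array per genotype. MAS5 (version 5) is the tool named in the submitters' processing notes, and the authors deposited MAS5 signals, a linear intensity per probe set, and their own fold change, a ratio of these signals that was not used here. The trimmed mean of both arrays, trimmed by 2% at each end, was 500.02, so the deposited intensity values were already scaled. Detection calls, a scaling target and the genome build were not given in the sources used. The labels name Trizol for RNA extraction and the methods an extraction kit. A second deposited table held the same values for all 18952 probe sets.

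Probe sets with several symbols were named through their transcript identifier and the RefSeq table (Release 6 plus ISO1 MT). Every detected member is named, and those below 100 on both arrays are given by count and range, with some of these, and some genes outside the family, named after their values had been seen. The members and lists were chosen with earlier results of these data known. Ratios were computed without a pseudocount. Scalings were tested on simulated data with as many increases as decreases. These arrays had more decreases, so that the test does not cover their case. Alternatives were median centring, quantile normalization, loess (span 0.3), a pseudocount of 16, the mean over probe sets, filters of 50, 200, 100 on both arrays or none, and exclusion of probe sets that may cross-hybridize. Analyses ran in Python 3.11.15 with pandas 2.3.3, numpy 2.4.6, statsmodels 0.14.6 and matplotlib 3.10.9.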

Additional observations from a re-analysis of the deposited data

How the results depend on the processing

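Obp99b, Obp99c, Obp99a and Obp18a were past 2-fold under every scaling and with the pseudocount, and no detected odorant binding protein gene changed its direction under these. For Obp28a this was marginal, since its log2 ratio was -0.0001 under median centring, and its direction carries little weight. Each detected member has 1 probe set and the second table holds the same values, so that averaging probe sets, excluding those that may cross-hybridize and using the second table could not move a ratio and say nothing on stability. The log2 ratio of Obp99b ranged from -6.59 to -6.45, that of Obp99c from -1.52 to -1.42, that of Obp99a from -1.13 to -1.07 and that of Obp18a from 2.43 to 2.59. Under the scalings and the pseudocount, the log2 ratios of all 18 detected genes, Obp99b included, moved by less than 1 SD between probe sets. The number of genes counted as detected was 51 with no filter by construction. The count of genes at least 2-fold higher rose from 1 to 2 with a signal of 50 on either array, through Obp57d, and to 6 with no filter, under which the count of genes at least 2-fold lower went from 3 to 4, since signals near background then entered. Counting the probe set shared with Cpr57A as Obp57d, an alternative chosen after seeing the data, gave 19 detected genes, of which 3 were lower and 1 was higher. Over all detected genes, 28.7% of the 2-fold changes were increases, against 37.1% after quantile normalization. These counts, 642 lower and 258 higher, became 342 and 165 with a signal of 100 on both arrays, 419 and 218 with a signal of 200 on either array, and 1405 and 738 with no filter. No paired analysis was possible because each group has 1 array, and no replicate could be left out. The spread between pools of larvae was not measured, so it is not known how far any of these ratios would vary in other pools.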
